A study of Mus musculus with 2 samples.

Results

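Matricellular proteins are secreted into the extracellular matrix, where they change how cells hold on to it and receive signals from it rather than serving as its scaffold. The tenascins, the thrombospondins, periostin and the SPARC proteins belong to this class, and several of them are known from bone, dentin, tendon and dermis. The 10 genes examined were Tnc, Tnn, Tnxb, Postn, Sparc, Smoc2, Thbs1, Thbs2, Thbs3 and Thbs4. They were chosen by name, as the non-control spots whose gene name on the array was a member of this list, which gave 13 probes of 10 genes out of 33184 named probes of 24325 genes. The mice were wild type and newborn (P0) for both groups. One group was the tooth and the other was the skin, with 1 array for each, and the study's methods name a stage 1 day later than the labels do. The labels give neither the strain nor the sex, and they do not say whether the RNA of several animals was pooled.

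Each member probe had 1 spot on each array. All 13 probes were called well above background on both arrays, and none was saturated or an outlier. By their brightest probe, 15271 of the 24323 named genes with a value were well above background on both arrays. The tooth array was the brighter, with a 75th percentile of 427.9 against 276.1 for skin, and each value below is a log2 signal relative to that percentile unless it is named as a processed signal. A difference is skin minus tooth on the log2 scale, so a negative difference means a higher signal in tooth. The error after ± is that of the extraction software for the single spots. It covers the spot and its background, and leaves out the variation between animals, dissections and labellings. Probes with several spots on an array gave a further measure of spot scatter, a median SD of 0.12 for a difference. With 1 array in each tissue there is no replicate check and no test, and every difference is a description of these 2 arrays. In RNA from whole tissue, fewer cells of a type and less RNA in each cell cannot be told apart. The labels fitted the tissues. The enamel and dentin genes Amelx, Ambn, Enam, Dspp and Dmp1 were well above background in tooth and not in skin, and the epidermal genes Krt1, Krt10, Flg, Lor and Lce1c were higher in skin by 8.39 to 12.89.

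The tenascins and the SPARC pair each held genes higher in tooth and genes higher in skin, and the thrombospondins were all toward tooth. Tenascin-W (Tnn) was 50.0-fold higher in tooth, a size set against a dim skin spot (a log2 difference of -5.64, or -4.10 under normexp background correction), and tenascin-X (Tnxb) was 14.1-fold higher in skin. Of the 4 thrombospondins, each had the higher signal in tooth, led by Thbs4 at 18.0-fold, again against a dim skin spot (-4.17, or -2.49 under normexp correction). In the SPARC family, Sparc was higher in tooth and Smoc2 was higher in skin. Periostin (Postn) was nearly equal, and its direction turned with the scaling. In all, 5 of the 10 genes (Tnn, Thbs4, Sparc, Thbs2 and Tnc) were at least 2-fold higher in tooth, against 15.5% of the 17409 named genes detected (called well above background) in at least 1 tissue. A further 2 of the 10 (Tnxb and Smoc2) were at least 2-fold higher in skin, against 14.2% of those genes. The remaining 3 genes, Thbs1, Thbs3 and Postn, were within 2-fold. Under spike-in scaling Thbs1 and Thbs3 passed it too, which made 7 genes toward tooth. The counts behind these shares were 2691 genes toward tooth and 2466 toward skin, which became 3500 and 2020 with the arrays shifted to equal medians and 6163 and 1519 with spike-in scaling. The median difference of the 10 genes was -1.05, beside -0.04 over the 17409 genes.

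**Figure D1:**
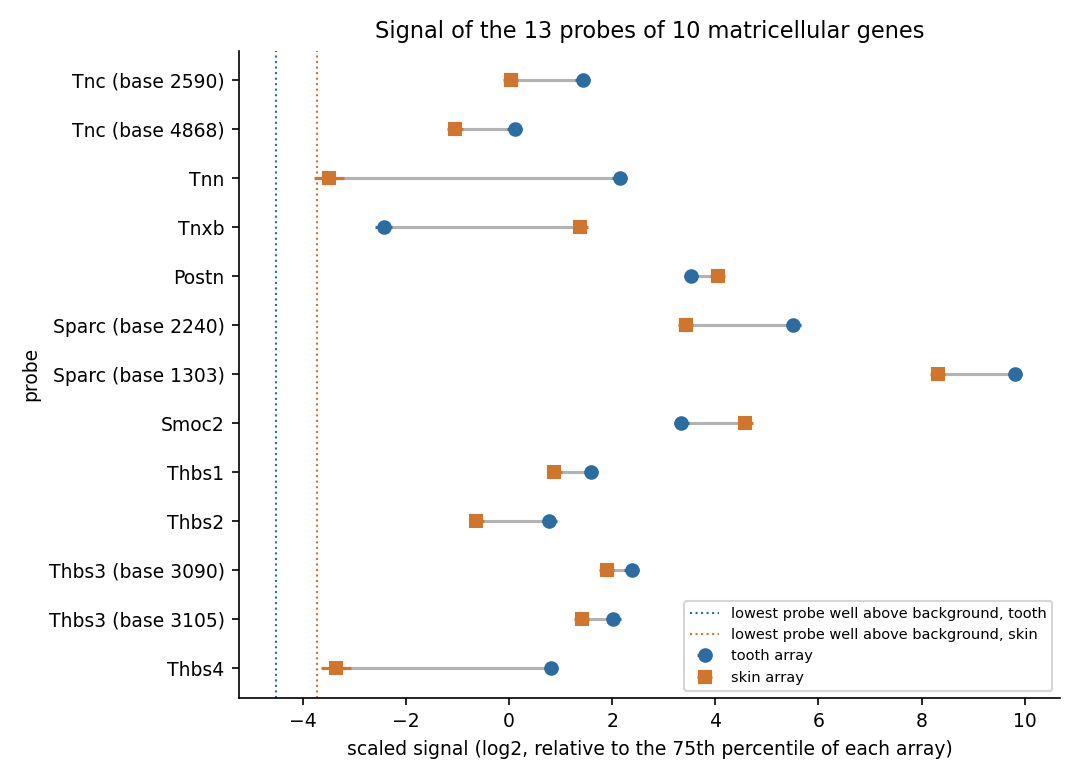
Signal of each of the 13 member probes (rows) on the tooth array (blue circles) and the skin array (orange squares), in log2 units relative to the 75th percentile of the array, with the spot error as a horizontal bar; dotted lines mark the dimmest probe called well above background on each array. Positions should be compared within a row only, and Tnn and Thbs4 in skin (-3.50 and -3.36) sit next to the dotted line of that array (-3.73).

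The stretches before the transcription start of the 3 genes with the largest differences are shown, to place the genes that separated the tissues most beside the sequence next to which their transcription begins. They are the 250 bases upstream of the start in RefSeq (GRCm38.p6), written 5′ to 3′ on the strand of the gene. Capitals mark matches, on either strand, to 4 motifs that were searched: the TATA box TATAAA, the GC box GGGCGG, the Runx motif TGTGGT and the AP-1 motif TGANTCA. A match on the other strand reads as the reverse complement, CCGCCC for the GC box, and no matches overlap in these windows.
Tnn (chr1:160153576-160153825, minus strand): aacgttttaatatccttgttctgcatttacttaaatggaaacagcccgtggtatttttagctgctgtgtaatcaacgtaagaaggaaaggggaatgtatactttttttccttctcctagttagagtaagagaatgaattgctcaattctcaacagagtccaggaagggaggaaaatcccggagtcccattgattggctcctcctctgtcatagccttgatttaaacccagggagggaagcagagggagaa
Thbs4 (chr13:92794819-92795068, minus strand): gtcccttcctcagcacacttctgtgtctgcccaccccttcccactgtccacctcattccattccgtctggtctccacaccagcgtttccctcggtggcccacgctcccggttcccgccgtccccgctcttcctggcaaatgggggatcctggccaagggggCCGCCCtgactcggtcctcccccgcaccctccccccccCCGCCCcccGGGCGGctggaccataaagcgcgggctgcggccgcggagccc
Tnxb (chr17:34670285-34670534, plus strand): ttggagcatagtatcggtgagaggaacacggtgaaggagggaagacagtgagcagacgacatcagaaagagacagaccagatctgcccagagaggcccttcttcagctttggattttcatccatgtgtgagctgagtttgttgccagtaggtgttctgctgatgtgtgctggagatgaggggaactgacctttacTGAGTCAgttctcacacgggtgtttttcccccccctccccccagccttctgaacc
The Tnn window held none of the 4 motifs and had a GC content of 42.0%. The Thbs4 window was 70.8% GC and held 3 GC boxes, which began 42, 51 and 89 bases before the start. The Tnxb window was 52.4% GC and held 1 AP-1 motif, 55 bases before the start. Its start lies inside the span that RefSeq gives the gene. Over the same 250 bases of 32851 promoters, the TATA box was found in 12.4%, the GC box in 32.7%, the Runx motif in 14.0% and the AP-1 motif in 6.75%, and the median GC content was 52.4%. Such a match is a run of letters and not a binding site. RefSeq windows were at hand for 8 of the 10 genes, all but Smoc2 and Thbs1.

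Tenascins are large glycoproteins built of EGF-like repeats, fibronectin type III repeats and a fibrinogen-like globe, joined into multimers at one end. Tnn is known from developing bone, periosteum and tooth mesenchyme. Its probe (chr1:162015185-162015244, mm9, minus strand) lies at base 5727 of its transcript. The processed signal of Tnn was 1896 ± 189.6 in tooth and 24.5 ± 4.91 in skin. The tooth spot was bright, and the skin spot was close to the dimmest signal called well above background on that array, which was 20.8. Before correction the skin spot read 73.8 over a local background of 35. The scaled signals were 2.15 and -3.50, and the difference was -5.64 ± 0.32. Of the 15271 named genes well above background on both arrays, 21 had a difference this far or further toward tooth, Tnn included. The skin signal was dim, and normexp background correction in place of the software's gave -4.10 for Tnn.

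Tenascin-C (Tnc) is expressed where epithelium and mesenchyme interact and in healing tissue. It had 2 probes. The brighter probe, at base 2590 of the transcript, gave a processed signal of 1148 ± 115 in tooth and 282 ± 28.7 in skin. Its 60 bases cover 764 bases of the genome (chr4:63674248-63675011, mm9, minus strand), which places it across a splice junction. Its difference was -1.39 ± 0.21, or 2.62-fold higher in tooth. The other probe, at base 4868 (chr4:63643728-63643787), read 461 ± 46.4 in tooth and 134 ± 14.5 in skin, which gave -1.16 ± 0.21. The gap between the probes was 0.24, smaller than its error of 0.30, although they lie 2278 bases apart in the transcript. For comparison, the median gap over the 3241 genes with 2 probes well above background on both arrays was 0.26.

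Tenascin-X binds collagen fibrils in loose connective tissue, and its loss in people causes a form of Ehlers-Danlos syndrome with lax skin. The Tnxb probe (chr17:34856502-34856561, mm9, plus strand) read 79.1 ± 9.12 in tooth and 718 ± 72.0 in skin, so that both spots were clear of background. On the scaled axis this was -2.44 against 1.38, a difference of 3.81 ± 0.22. Toward skin, 262 of the 15271 genes (1.72%) had a difference at least as large, Tnxb included. Under normexp correction its difference was 2.99. The 3 tenascins therefore spanned 9.46 log2 units on these arrays, the widest range within any of the member families. The size of this span rests on the dim skin spot of Tnn, and it was smaller under normexp correction (Tnn at -4.10, Tnxb at 2.99).

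Thrombospondins are calcium-binding glycoproteins. Thbs1 and Thbs2 form trimers, carry type 1 repeats and inhibit the growth of blood vessels, and Thbs1 also activates latent TGF-beta. Thbs3 and Thbs4 form pentamers and lack the type 1 repeats. The Thbs4 probe (chr13:93521565-93521624, mm9, minus strand) read 751 ± 75.2 in tooth and 26.9 ± 5.51 in skin. As for Tnn, the skin spot was barely above the dimmest detected signal of 20.8. Thbs4 had a difference of -4.17 ± 0.33, and 78 of the 15271 genes (0.511%) lay as far or further toward tooth. Normexp correction gave -2.49 for Thbs4, which is still over 4-fold.

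Thbs2 was the other member of this family past 2-fold. Its probe covers 1264 bases of the genome (chr17:14804526-14805789, mm9, minus strand) and so also lies across a splice junction. The processed signal was 735 ± 73.6 in tooth and 178 ± 18.4 in skin, which gave -1.42 ± 0.21, or 2.67-fold higher in tooth. Thbs1, the thrombospondin stored in platelets, read 1286 ± 129 in tooth and 506 ± 50.8 in skin (chr2:117952585-117952644, mm9, plus strand). Its difference of -0.71 ± 0.21 was within 2-fold. Thbs3 was the least uneven, at 2218 ± 222 in tooth and 1027 ± 103 in skin (chr3:89030667-89030726, mm9, plus strand) and a difference of -0.48 ± 0.20. The other Thbs3 probe gave -0.61. These probes share 45 of their 60 bases, so they are not separate measurements of the gene. Thbs1 and Thbs3 were past 2-fold toward tooth when the arrays were scaled to the spike-in transcripts (-1.40 and -1.17).

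SPARC, also called osteonectin, binds collagen and calcium and is abundant in bone and dentin. Its brighter probe had a processed signal of 384891 ± 38489 in tooth and 87999 ± 8800 in skin, with neither spot saturated (chr11:55208939-55208998, mm9, minus strand). The difference was -1.50 ± 0.20, or 2.82-fold higher in tooth. The other probe lies 937 bases further along the transcript (chr11:55208003-55208061) and read 19524 ± 1952 in tooth and 2968 ± 297 in skin, which is -2.09 ± 0.20. The gap between the Sparc probes was 0.59, with an error of 0.29, and both put the gene past 2-fold toward tooth.

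Smoc2 is a secreted relative of SPARC that shares its calcium-binding domain. It read 4321 ± 432 in tooth and 6620.0 ± 662 in skin (chr17:14541664-14541723, mm9, plus strand), which is 1.25 ± 0.20, or 2.37-fold higher in skin. The call of 2-fold rested on the scaling. With the arrays shifted to equal medians the difference was 0.999, just short of 2-fold, and scaling to the spike-in transcripts gave 0.56. The Smoc2 and Thbs2 probes lie 262.8 kb apart on chromosome 17, and RefSeq places 0 protein-coding genes between these genes. These neighbours differed in opposite directions, by 1.25 and -1.42. That they are neighbours was noticed after their values were known.

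Periostin is a fasciclin-domain protein of periosteum, periodontal ligament and dermis that binds collagen and promotes its cross-linking. Postn read 4937 ± 494 in tooth and 4548 ± 455 in skin (chr3:54194840-54194899, mm9, plus strand). The unscaled signal was thus slightly higher in tooth, and after scaling the difference was 0.51 ± 0.20, or 1.43-fold higher in skin. Spike-in scaling turned it to -0.18, so the direction for Postn depended on the scaling.

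Placed in order from tooth to skin, the differences ran Tnn, Thbs4, Sparc, Thbs2, Tnc, Thbs1, Thbs3, Postn, Smoc2 and Tnxb. Sparc, Thbs2 and Tnc (-1.50, -1.42 and -1.39) had no order among neighbours, since the gaps of 0.08 and 0.03 each had an error of 0.29. Thbs1 and Thbs3 also differed by less than 2 errors (0.24, error 0.29). The other 6 gaps between neighbours were larger than 2 errors of the spots. Without Tnn, Thbs4 and Tnxb, the other 7 genes lay between -1.50 and 1.25.

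**Figure D2:**
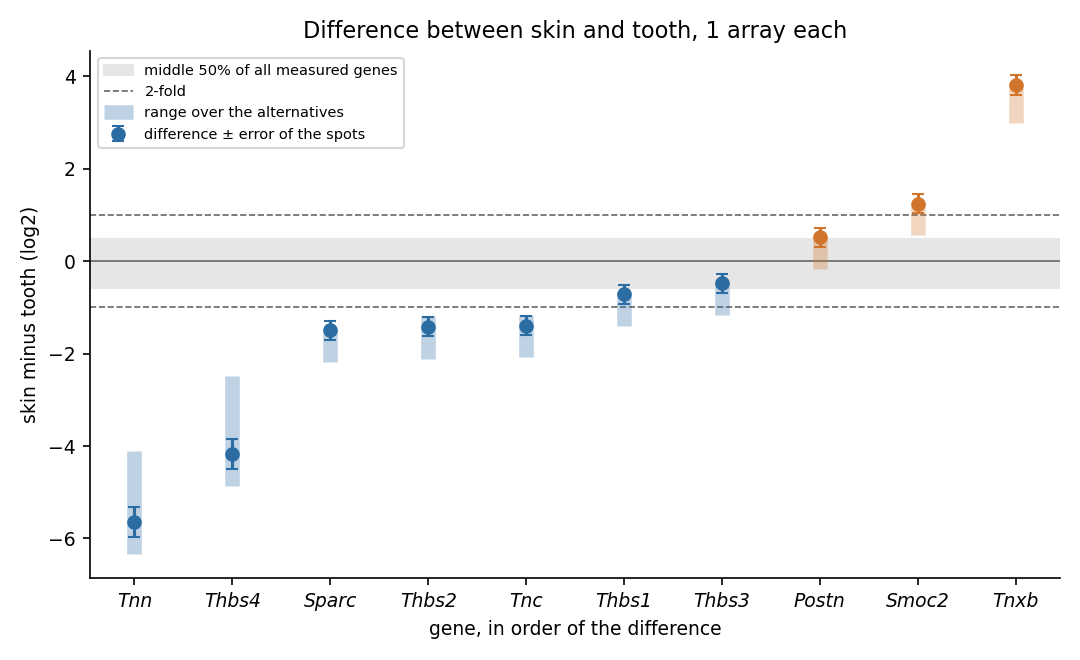
Difference between skin and tooth (log2, vertical axis) for the 10 genes by their brighter probe, in order; bars show the spot error, pale columns the range over the processing alternatives, dashed lines 2-fold and the grey band the middle 50% of the 17409 measured genes (-0.58 to 0.47). Tnn, Thbs4, Sparc, Thbs2 and Tnc stay below the lower 2-fold line, Tnxb stays above the upper line, and the column of Postn crosses 0.

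Other matricellular genes of the same or related families formed a list of 16, of which 13 were detected in at least 1 tissue. Tnr, Spock3 and Ccn6 were not well above background on either. Of the 13, 5 were at least 2-fold higher in tooth (15.5% of all measured genes) and 3 in skin (14.2%), with a median of -0.82, or -0.72 with dim values at their detection bound. Osteopontin (Spp1), a phosphoprotein of bone matrix, had a signal in tooth at least 55.0-fold that in skin, where it was not well above background. The measured difference of Spp1, -5.79, became -3.85 under normexp correction, which falls short of that bound. Ccn4, a CCN protein of osteogenic cells named Wisp1 on the array, differed by -3.71 and by -4.35 at its other probe. Ccn5 had a bound of at least 6.78-fold toward tooth, and its measured difference of -2.76 became -1.235 under normexp correction. Ccn3 of the same family went the other way. Its signal in skin was at least 22.1-fold that in tooth, where it was not well above background. Under normexp correction its measured difference of 4.47 became 2.565, which falls short of that bound. Sparcl1, a close relative of Sparc, was higher in tooth (-2.11), whereas Smoc1, the relative of Smoc2, was higher in skin (3.63). Smoc1 was dim in tooth (-3.74), and normexp correction gave 2.17. Comp, the remaining thrombospondin, was dim on both arrays and differed by 1.25 toward skin, or 0.56 under spike-in scaling. Spock1, detected in tooth only, had a bound of at least 1.36-fold toward tooth, and its measured difference of -0.82 turned to 0.18 under normexp correction.

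**Figure D3:**
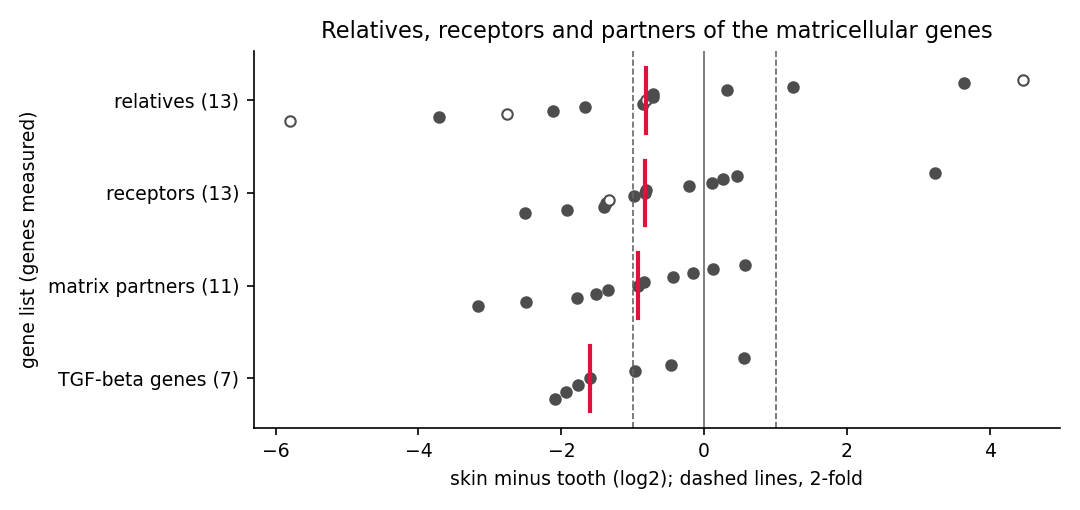
Difference between skin and tooth (log2, horizontal axis) for each measured gene of 4 lists (rows; number measured in brackets); filled circles were well above background on both arrays, open circles on 1 array only at the value as measured, red bars are medians, dashed lines 2-fold, and the vertical offsets within a row only separate the points. The relatives range from -5.79 to 4.47, and the TGF-beta genes lie mostly left of 0, with a median of -1.60.

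All 13 genes of the receptor list were measured. By the measured values 5 were at least 2-fold higher in tooth (15.5% of all measured genes) and 1 in skin (14.2%), with a median of -0.84. Of these 5, Tlr4 was too dim in skin for more than a bound, which falls short of 2-fold. Itgb3, an integrin subunit of receptors for osteopontin and thrombospondin, differed by -2.50, and its other probe was dim in skin. Itgb6, an epithelial integrin subunit, differed by -1.92 and by -1.33 at its other probe. Cd36, a receptor for Thbs1 that is also a fatty acid transporter of adipocytes and endothelium, was higher in skin by 3.24. Cd36 was dim in tooth (-3.69), and normexp correction gave 1.96. Cd47, another thrombospondin receptor, was nearly equal at -0.21. Itga8 differed by 0.46, or -0.23 under spike-in scaling. Tlr4, which recognises tenascin-C, was detected in tooth only, with a bound of at least 1.09-fold, and its measured difference of -1.33 turned to 0.14 under normexp correction.

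The 11 matrix proteins and enzymes that bind or process with the members included 5 that were at least 2-fold higher in tooth (15.5% of all measured genes) and 0 in skin (14.2%). Their median was -0.93. The type I collagen genes Col1a1 (-3.17) and Col1a2 (-2.50), whose product SPARC and periostin bind, were farthest toward tooth. Col3a1 was nearly equal (0.13, or -0.56 under spike-in scaling). Col14a1 differed by 0.58 at its brighter probe and by -0.76 at the other, so its probes disagreed in direction. Of 7 genes of the TGF-beta pathway, which controls several matricellular genes, 4 were at least 2-fold higher in tooth and 0 in skin, beside the same 15.5% and 14.2% of all measured genes. Tgfb1 (-2.09) and Tgfb2 (-1.94) had the largest values, and the latent binding protein Ltbp1 was the only gene of the list with the higher signal in skin, at 0.56, which turned to -0.13 under spike-in scaling.

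Markers of cell types that make these proteins also differed between the arrays. Bone markers were all 5 well above background in tooth and 3 of 5 in skin, where Sp7 and Phex were not. Their summed level was 114 times the 75th percentile in tooth and 0.768 times in skin, with a median of -7.43 (-6.79 at the bound). All 4 fibroblast markers (Pdgfra, Pdgfrb, Lum and Vim) were detected on both arrays, with sums of 189 in tooth and 54.1 in skin. Of these, 3 of 4 were at least 2-fold higher in tooth, against 15.5% of all measured genes. Smooth muscle markers, also 4 of 4 on both arrays, had sums of 70.6 and 16.4, although Myh11 was nearly equal (0.19, or -0.51 under spike-in scaling). Tnn, Sparc, Thbs2 and Tnc differed in the direction of these 3 lists, whose part in the differences was not tested.

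Toward skin, the markers of skeletal muscle and fat were higher, as were Tnxb and Smoc2. Of 6 muscle markers (sums of 8.77 and 88.1) 5 were well above background on both arrays. Of those, 5 of 5 were at least 2-fold higher in skin, against 14.2% of all measured genes. Mylpf was not well above background on either. All 4 fat markers were detected in skin and 1 of 4, Pparg, in tooth, with sums of 0.958 and 6.88. Schwann cell markers were detected in 4 of 4 cases in tooth and 3 of 4 in skin, with sums of 8.38 and 6.67, and Sox10 was higher in skin by 3.21. Epithelial markers, 4 of 4 on both arrays, had sums of 532 and 1038. The part of these cell types in the values of Tnxb and Smoc2 was not tested.

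For Thbs4, known from tendon and muscle, 3 of 3 tendon markers were detected in tooth and 2 of 3 in skin, with sums of 1.63 and 1.67. Scx was higher in skin (1.35). Tnmd, dim in skin (-3.53), was higher in tooth (-1.66), or -0.49 under normexp correction. Mkx, also dim in skin, had a bound of at least 9.78-fold toward tooth. Its measured difference of -5.35 became -1.94 under normexp correction. Muscle markers were higher in skin and Thbs4 in tooth. Of 5 cartilage markers 4 were detected in tooth and 3 in skin, with sums of 6.999 and 4.67. Col2a1 had a bound of at least 43.3-fold toward tooth, and its measured difference of -5.49 became -3.49 under normexp correction. Acan differed by -1.37, or -0.50 under normexp correction, whereas Sox9 (0.40, or -0.29 under spike-in scaling) was toward skin. Col9a1, dim on both arrays, differed by 0.70, or 0.01 under spike-in scaling. Its other probe, not well above background in skin, went the other way with a measured difference of -2.62. For Thbs1, 3 of 4 platelet markers were detected in tooth and 2 of 4 in skin, with sums of 3.11 and 5.10 and a median of -0.62, or 0.39 at the bound. Pf4, a chemokine of platelets, differed by 0.78 toward skin and was the only one detected on both arrays. Ppbp and Gp9 were detected in tooth only and Itga2b in skin only. Endothelial markers were detected in 4 of 4 cases in tooth and 3 of 4 in skin, Tek being the exception. They had sums of 30.6 and 38.1, most of it from the brighter Kdr probe (scaled signals of 4.78 and 5.21). Their median was -0.83, or -0.52 with dim values at their bound and -0.05 under normexp correction. Cdh5 was higher in tooth (-2.70), and Pecam1 (0.50, or -0.19 under spike-in scaling) was toward skin. Kdr differed by 0.43 at its brighter probe (-0.26 under spike-in scaling) and by -2.185 at the other, so its probes disagreed in direction. The part of these cell types was not tested.

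**Figure D4:**
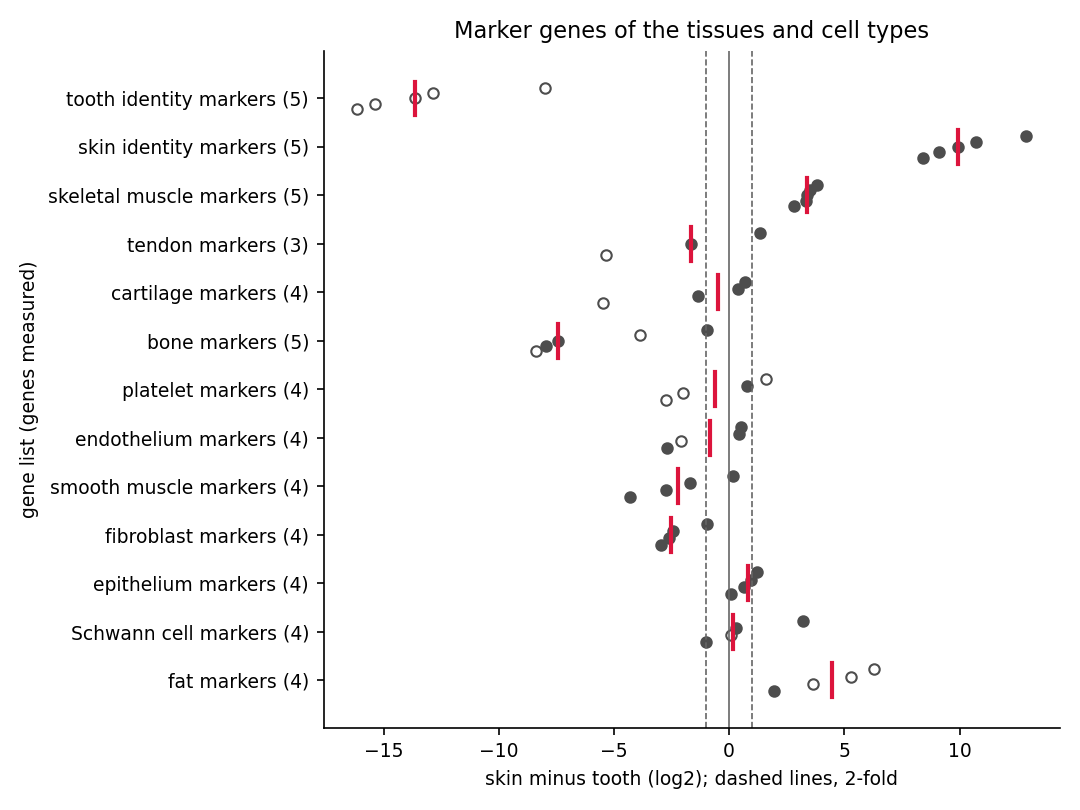
Difference between skin and tooth (log2, horizontal axis) for each measured marker gene, by tissue or cell type (rows; number measured in brackets); filled circles were well above background on both arrays, open circles on 1 array only at the value as measured, red bars are medians, dashed lines 2-fold, and vertical offsets only separate the points. Bone and fibroblast markers lie toward tooth (medians -7.43 and -2.52), and muscle and fat markers lie toward skin (3.38 and 4.46).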

How the data were processed

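Total RNA of 1 tooth and 1 skin sample had been labelled with Cy3 and hybridised to Agilent SurePrint G3 mouse arrays, both on 1 slide. The deposited intensity values came from Agilent Feature Extraction (version 10.7.3.1), which per the file headers had subtracted background, removed spatial trends and put surrogates in place of very dim values. The authors also deposited a ratio for each spot, the processed intensity divided by 1 factor for each array (430.7 for tooth and 274.5 for skin). The study's methods name GeneSpring, a filter on low signal and a percentile shift.

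Here, spots without outlier calls were averaged on the log2 scale for each probe, and each array's 75th percentile over non-control probes was subtracted. A probe counted as detected if over 50% of its spots had the software's call of well above background. Each gene was represented by its brightest probe, and a gene entered when it was detected on at least 1 array. A dim value was set no lower than the dimmest detected signal of its array to give a bound. Such a bound applies to the software's background correction and is not a lower limit under normexp correction. Names came from accessions matched to RefSeq GRCm38.p6 (82.1% of named probes), and probe coordinates are mm9, per the file headers. Protein sequences were not used here, so the exon or UTR under a probe was not analysed, and probe sequences are not printed. Alternatives covered scaling, background correction, with limma (version 3.58.1), the choice of probe, the filter and outlier spots. Python (version 3.11.15) was used, and the steps were tested on simulated data. With 1 array in each tissue no test was run, and the number of arrays limits the precision.

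The members and lists were chosen with earlier results of these data known. All 10 members are named with all their probes. Of each pathway list, the text names the 2 largest differences in each direction measured on both arrays and the genes detected on 1 array only. Markers are named where their list moves with a member. The motifs, Cd47, Sox10, Scx, Myh11, the cartilage, platelet and endothelial genes, and the genes named as undetected, were chosen after their values were seen.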

Additional observations from a re-analysis of the deposited data

How the results depend on the processing

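Tnc, Tnn, Tnxb, Sparc, Smoc2 and the thrombospondins kept their direction under all 12 alternatives. The direction of Postn reversed under spike-in scaling (-0.18) and under scaling to the median spike-in (-0.11), which was added after seeing the data because 1 of the 8 spike-ins stood apart by 0.54. Relative to the main scaling, spike-in scaling moved the median gene by -0.69, median spike-in scaling by -0.62 and a median shift by -0.25. The count of genes at least 2-fold higher in skin was 1 under each of these scalings, because Smoc2 lost its place, and 1 at a 4-fold threshold. The count higher in tooth was 7 under both spike-in scalings and 2 at 4-fold. The median of the 10 genes was -1.30 under a median shift, -1.74 under spike-in scaling, -1.68 under median spike-in scaling and -0.94 with the dimmest detected probe. The medians of the 4 pathway lists kept their sign under spike-in and normexp processing. Of the marker lists, the Schwann cell median turned from 0.19 to -0.50 under spike-in scaling, and the platelet median turned from -0.62 to 0.32 under normexp correction. Over all genes, the counts past 2-fold were 2466 toward skin and 2691 toward tooth, against 2020 and 3500 with a median shift, 1519 and 6163 with spike-in scaling, 1573 and 5639 with the median spike-in, and 1743 and 1672 with normexp correction. No paired analysis was possible because each tissue had 1 array. The spots of Tnn and Thbs4 in skin were too dim for the size of their differences to be firm.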

Other observations

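Protein-coding genes next to the members in RefSeq order were compared after the member values were known. Under the main scaling the neighbours of the 3 genes with the largest differences were within 2-fold. Most measured genes were too, since 15.5% were at least 2-fold higher in tooth and 14.2% in skin. Beside Tnn, Mrps14 differed by 0.05 and 4930523C07Rik by 0.70. Beside Thbs4, Mtx3 differed by -0.54 and Serinc5 by -0.91. Beside Tnxb, Atf6b differed by -0.23 and C4b by -0.72. Spike-in scaling moves each difference by -0.69, which puts Mtx3, Serinc5 and C4b past 2-fold toward tooth. Dact2, the gene before Smoc2, was at -0.81 in tooth and was not well above background in skin (-3.78), so on its other side too Smoc2 has a neighbour with the higher signal in tooth. Rasgrp1, the gene before Thbs1, was higher in skin by 3.73.

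Long non-coding probes within 50 kb of a member probe were found beside Tnn only, 11 in number. Of these, 3 probes of a region on the opposite strand, 22.4 to 22.5 kb from the Tnn probe, were well above background in tooth and not in skin, with signals of -2.88, -3.24 and -3.71 in tooth. All 3 were dim, and no fold is given for them. A probe of another region, 40.6 kb away, was detected on both arrays and differed by -0.37. The other 7 were dim on both arrays.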
